A study of Mus musculus with 4 samples.

Results

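Endothelial cells, which line the blood vessels, were selected from single-cell RNA sequencing of the proximal part of the mouse incisor at postnatal day 15. A barcode was kept when it had 1000 or more detected genes, with mitochondrial reads not above 10% and hemoglobin reads not above 3%. It was taken as endothelial when at least 4 of the 9 genes Pecam1, Cdh5, Kdr, Emcn, Plvap, Egfl7, Flt1, Cldn5 and Tie1 were detected and neither Ptprc, the pan-leukocyte gene, nor Epcam, an epithelial gene, had a count. The rule found 719 cells among 11310 kept barcodes of 20502 deposited, and it used measured values of these cells. The study compared wild-type mice (WT) with mice that lacked Din (Din-KO), a gene annotated as 4930453N24Rik, with 2 libraries of each genotype. The Din-KO allele was made from a gene-trap allele by germline Cre, which removed the selection cassette and an exon, so every cell of the mouse carried it. The controls are labelled WT with no other allele named, and the strain, the sex and the number of mice in a library are not given in the sources used here. Counts are of unique molecular identifiers (UMIs), each standing for 1 captured transcript read near its 3′ end.

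Endothelial cells form the inner wall of arteries, capillaries and veins, and in a growing tooth they supply the pulp and the layers that secrete dentin and enamel. They respond to interferons, secreted proteins that act through the Ifnar and Ifngr receptors and STAT factors on genes for antiviral proteins, interferon-inducible GTPases and antigen presentation. Class I major histocompatibility (MHC) molecules present peptides from within the cell and are made by nearly all nucleated cells. Class II molecules present peptides taken up from outside, are made mostly by professional antigen-presenting cells, and can be induced in endothelium through the transactivator Ciita.

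The libraries are named WT replicates 1 and 2 and Din-KO replicates 1 and 2, and values for all 4 are given in that order throughout. They held 50423655, 32198098, 54348039 and 33076212 UMIs in total, and 231, 101, 277 and 110 endothelial cells. Endothelial UMIs summed to 2981533, 1470701, 3793607 and 1864310, and the median cell had 8674, 9730, 8172 and 9107.5. Levels are in counts scaled to 1000000 UMIs of the cells summed (CPM), so that 1 CPM stands for only a few UMIs in each library. No endothelial barcode was shared between libraries, although 4 to 12 barcodes of all those deposited were shared within a pair. Nothing in the labels says that the libraries came from separate litters or preparations, so p-values here measure the spread between these 4 libraries, which may be technical.

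The endothelial label held against genes that the rule did not use. All 28 other endothelial genes on a list of transcription factors, receptors and junction proteins were higher in the selected cells than in the other kept cells of all 4 libraries. For 25 of them the difference was at least 8-fold in each library, and the median over the 28 genes of the smallest within-library log2 ratio was 5.26. The lowest was S1pr1, the receptor for sphingosine 1-phosphate, at 2.20. These ratios describe the selection and were not tested. Among 2899 genes at 50 CPM or more in every endothelial sum, the largest ratio belonged to Gpihbp1, which anchors lipoprotein lipase on the capillary surface. Gpihbp1 was at 600, 363, 668 and 599 CPM in endothelial cells and at 4.34, 2.42, 4.68 and 1.48 CPM in the rest. The sialomucins Cd34 and Podxl, the transcription factor Sox17, the adhesion molecule Esam, the retinoid-binding protein Rbp7 and the phosphatase Ptprb followed it.

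**Figure D1:**
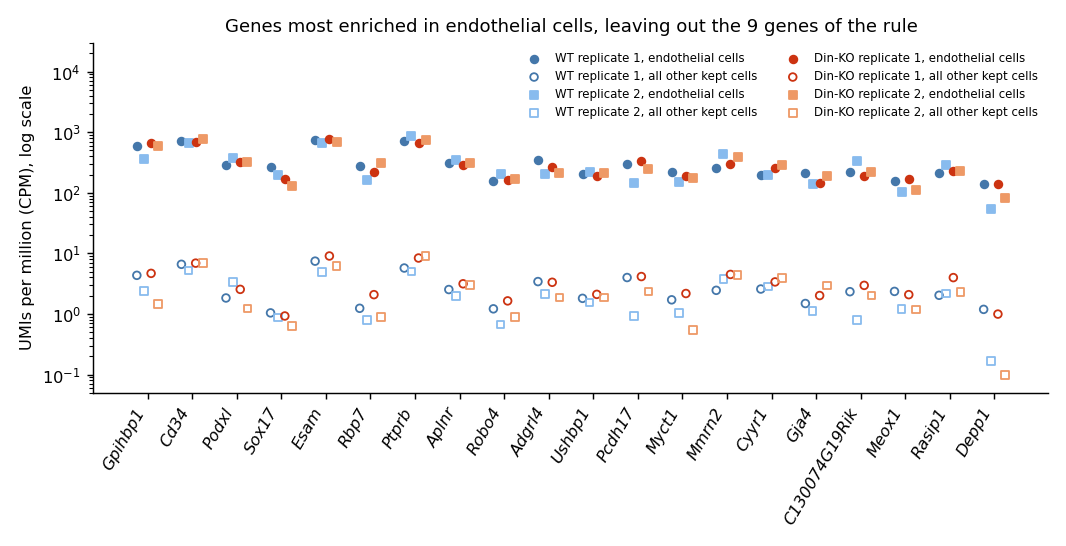
Levels in CPM (log axis) of the 20 genes with the largest smallest-of-4 ratio of endothelial to other kept cells, leaving out the 9 genes of the rule; filled points are endothelial cells and open points all other kept cells, 1 point per library. Every endothelial point lies well above the points of the other cells of the same gene.

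Most members were far from the threshold of the rule. All 9 genes were detected in 434 cells, 8 in 207, 7 in 51 and 6 or fewer in 27. The 28 other endothelial genes summed to 10814 CPM in cells with all 9 genes and to 8849 CPM in the 277 cells with 5 to 8. They summed to 3534 CPM in the 8 cells just inside the threshold, with 4 genes. In the 21 cells just outside it, with 3 genes, they summed to 210 CPM, close to the 217 CPM of the 7490 cells with at most 1 gene. A further 70 cells had 4 or more of the 9 genes but were left out for a count of Ptprc or Epcam, 58 of them for Ptprc.

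The share of endothelial cells among kept cells was 5.92% (exact 95% binomial interval 5.20 to 6.71), 6.47% (5.30 to 7.81), 6.05% (5.38 to 6.79) and 8.65% (7.16 to 10.3). Din-KO replicate 2 was above the other libraries, and Din-KO replicate 1 lay between the WT libraries. The group means were 7.35% ± 1.83 (SD, n = 2) in Din-KO and 6.20% ± 0.393 (SD, n = 2) in WT, a difference of 1.15 percentage points. It did not hold up against the spread (exact two-sided permutation test, p = 0.667, where 0.333 is the smallest p that 2 libraries against 2 allow). Without Din-KO replicate 2 the difference turned to -0.14 points. These intervals, and those that follow, cover counting error only, and the share also depends on how well each cell type survived dissociation.

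Din lies on chromosome 16 at 64751751 to 64771161 on the minus strand (GRCm38). In endothelial cells it was at 29.9, 12.2, 7.64 and 15.0 CPM. The WT and Din-KO libraries overlapped, with a log2 fold change of -0.96 ± 0.55 (SE, n = 2 and 2, adjusted p = 0.999 in edgeR, by its quasi-likelihood test, with the Benjamini-Hochberg correction). Counts near the 3′ end of a transcript need not include the deleted exon, so this level does not check the genotype. The sexes were not balanced between the genotypes. Cells with a UMI of a Y-linked gene (Uty, Kdm5d, Ddx3y or Eif2s3y) are called Y cells if they had no more than 1 UMI of Xist, the RNA that silences an X chromosome in females. Cells with at least 3 Xist UMIs and none of the Y-linked genes are called Xist cells. There were 0, 0, 87 and 32 Y cells, 214, 93, 119 and 62 Xist cells, and 17, 8, 71 and 16 in neither class. Each Din-KO library thus held cells of both sexes and each WT library no Y cell, so that between the genotypes the sex of the mice and the genotype cannot be told apart in the whole sums. Xist cells alone compare one sex, and results in them are given below.

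Din-KO was compared with WT on the UMI sums of all endothelial cells of a library. Of 11202 genes tested 1 passed an adjusted p of 0.05 (0.00893% of those tested), the class I gene H2-Q7, and it was higher in Din-KO. No gene was called lower. At an unadjusted p of 0.05, 241 genes were higher (2.15%) and 93 lower (0.83%), and DESeq2, another count test, called 56 higher and 7 lower. The count rested on the model and on the libraries used. With the replicate number as a block, 154 genes were called higher and 57 lower, but the labels do not say what the number stands for. Without WT replicate 1 edgeR called 36 genes higher and 30 lower, without WT replicate 2 none in either direction, without Din-KO replicate 1 5 higher, and without Din-KO replicate 2 16 higher. For 10.9% of all genes both Din-KO values exceeded both WT values, for 15.6% they were below them, and the median log2 fold change of all genes was -0.01.

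The genes at the head of this ranking were those of antigen presentation and of interferon responses. Of the 56 genes that DESeq2 called higher, 39 belonged to 4 lists of such genes (class I with antigen processing, class II, interferon-inducible GTPases and type I interferon genes), which held 83 tested genes together. None of the 7 lower calls did. When the 2 clusters of cells led by genes of other cell types were left out (107 cells, described below), edgeR called 20 genes higher, of which 17 were in these lists. In Xist cells alone no gene passed in edgeR in either direction, with 227 of 10074 genes higher and 142 lower at an unadjusted p of 0.05. These lists were chosen with earlier results of these data known, so their counts describe the genes and are not independent evidence of a direction.

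**Figure D2:**
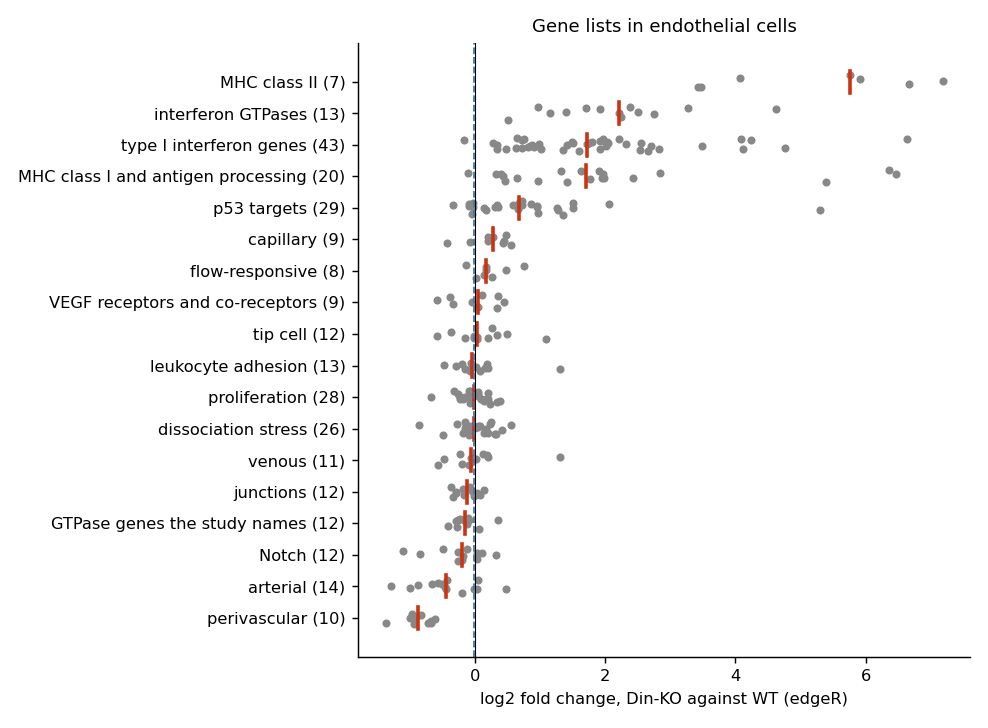
Log2 fold change of Din-KO against WT in endothelial cells for each tested gene of 18 lists (points), with each list's median (red bar) and the median of all genes (dashed line); the number of genes tested is in parentheses. The 4 interferon and MHC lists lie to the right of the dashed line, with medians from 1.70 to 5.76, and most vascular lists lie around it.

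H2-Q7 encodes a nonclassical class I molecule of the Qa-2 group and lies in the MHC on chromosome 17 at 35439155 to 35443773 on the plus strand (GRCm38). It was at 2.01, 0.680, 138 and 136 CPM. Both Din-KO libraries were far above both WT libraries, with a log2 fold change of 6.46 ± 0.38 (SE, n = 2 and 2, edgeR adjusted p = 0.0392). With only a few UMIs in WT, it could be tested because of its counts in Din-KO. The fold is therefore inexact, and the call supports nothing further. It was not called in Xist cells alone or with at least 3 of the 9 genes of the rule. Within each Din-KO library its level differed between Xist and Y cells, in opposite directions (given below). Qa-2 genes, like the classical class I and class II genes described next, are known to differ between mouse strains. With the strain of each group not given and the library names unexplained, a difference in MHC haplotype and the loss of Din cannot be told apart for H2 genes between the genotypes. Its neighbor H2-Q6, which is nearly identical in sequence so that reads may be split between them, was at 0.335, 1.36, 17.1 and 105 CPM.

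The class I list also holds the heavy chains, their light chain, the peptide transporter and the immunoproteasome. H2-K1, a classical heavy chain (chromosome 17, 33996017 to 34000347, minus strand), was at 108, 216, 1200 and 1029 CPM. The other classical heavy chain, H2-D1, was at 407, 425, 1653 and 1499 CPM. The light chain B2m was at 330, 327, 1373 and 1103 CPM. In all 3 genes the Din-KO libraries were several-fold above the WT libraries without overlap, with log2 fold changes of 2.85 ± 0.36, 1.97 ± 0.20 and 1.96 ± 0.22 (SE), and none passed in edgeR (adjusted p = 0.141, 0.128 and 0.141). Tap1, a subunit of the transporter that carries peptides to class I molecules, was at 17.4, 22.4, 75.7 and 75.6 CPM. The immunoproteasome subunits Psmb8 and Psmb9 were at 103, 59.8, 265 and 160 CPM and at 35.2, 20.4, 128 and 79.9 CPM. Nlrc5, the class I transactivator, was at 0.335, 0, 12.4 and 9.66 CPM. Of the 20 tested genes of the list 1 was called (H2-Q7). An unadjusted p under 0.05 with a higher level in Din-KO was found for 14 (2.15% of all genes). For 15 both Din-KO libraries were above both WT libraries (10.9% of all genes). Erap1, a peptide trimming enzyme, and Tapbp, which links the transporter to class I molecules, were among those that overlapped. The list median was 1.70 on the log2 scale, against -0.01 for all genes.

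Class II genes were close to absent in WT endothelial cells. Cd74, the invariant chain that escorts class II molecules, was at 2.01, 2.72, 326 and 132 CPM. The class II chains H2-Aa and H2-Eb1 were at 0.671, 1.36, 72.2 and 27.4 CPM and at 1.01, 0.680, 68.5 and 41.8 CPM. H2-Ab1, the beta chain that pairs with H2-Aa, was at 4.02, 7.48, 120 and 55.8 CPM. The 2 WT libraries were near the level of a few UMIs in each, and both Din-KO libraries were above them, with replicate 1 the higher. H2-DMa and H2-DMb1, which load peptides on class II, were at 2.35, 2.04, 27.9 and 19.3 CPM and at 2.35, 2.04, 28.7 and 19.8 CPM. Ciita had no UMI in either WT library and 5.80 and 8.58 CPM (38 UMIs) in Din-KO, at least 9.97-fold higher over a floor of 3 counts for the WT group. The log2 fold change was 6.67 ± 0.63 for Cd74 (edgeR adjusted p = 0.101) and 5.92 ± 0.49 for H2-Eb1 (adjusted p = 0.0687). All 7 genes of the list were higher at an unadjusted p under 0.05 (2.15% of all genes) and without overlap (10.9% of all genes), and none was called. Most of them had only a few UMIs in WT and could be tested because of their counts in Din-KO, so this count describes the genes and supports nothing further. Their median log2 fold change was 5.76, or 4.07 with Ciita at its bound.

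Markers of antigen-presenting leukocytes were also present at a low level in the endothelial sums. The 8 macrophage genes together were at 50.6, 87.0, 128 and 62.2 CPM, with Lyz2 the most abundant, and none of them was at 0 in every library. The lymphocyte genes together were at 0.671, 4.08, 4.48 and 2.15 CPM, with the T cell gene Cd3e at 0 in all 4 libraries. Ptprc is 0 by the rule. Per CPM of the macrophage list there were 2.56 and 2.12 CPM of Cd74 in the Din-KO endothelial libraries. In the immune cells of the same libraries, defined by a UMI of Ptprc, there were 0.0492 and 0.126. These immune cells were not divided by leukocyte type, and the source of Cd74 in the endothelial sums was not tested.

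Interferon-inducible GTPases, which act on membranes around intracellular pathogens, were all higher in both Din-KO libraries than in both WT libraries (13 of 13 tested genes, against 10.9% of all genes). Igtp (chromosome 11, 58199556 to 58207591, plus strand) was at 5.70, 6.12, 56.4 and 54.7 CPM. Iigp1 was at 41.6, 49.0, 311 and 279 CPM. The Din-KO replicates lay close together in both genes, at several times the WT level, and the log2 fold changes were 3.27 ± 0.25 and 2.75 ± 0.22 (SE, edgeR adjusted p = 0.0687 for each). Tgtp2 was at 1.34, 0.680, 27.4 and 27.9 CPM, although it shares sequence with Tgtp1, and the guanylate-binding protein Gbp3 was at 19.1, 19.0, 70.1 and 70.8 CPM. The smallest difference in the list was that of Gbp9, at 18.4, 27.2, 32.2 and 29.5 CPM. At an unadjusted p under 0.05, 12 of the 13 were higher (2.15% of all genes), and the list median was 2.22.

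Type I interferon genes were broader in range. Irf7, the transcription factor that amplifies the type I response (chromosome 7, 141262706 to 141266481, minus strand), was at 10.7, 4.08, 193 and 102 CPM, a log2 fold change of 4.23 ± 0.53 (edgeR adjusted p = 0.141). The ubiquitin-like protein Isg15 was at 50.3, 67.3, 294 and 161 CPM. Ifit3 and Ifit2, which bind foreign RNA or associate with proteins that do, were at 3.35, 2.72, 43.8 and 24.7 CPM and at 4.02, 4.76, 28.5 and 25.2 CPM. In each of these genes Din-KO replicate 1 was the highest library, and neither Din-KO library overlapped with WT. Zbp1, a sensor of unusual nucleic acids, was at 0, 0.680, 38.2 and 15.0 CPM. Of 43 tested genes 36 were higher at an unadjusted p under 0.05 (2.15% of all genes) and none was lower. For 38 both Din-KO libraries were above both WT libraries (10.9% of all genes). The 5 that overlapped were Ifi27, Trim25, Samd9l, Helz2 and Uba7. The median was 1.73, and it fell to 1.25 without Din-KO replicate 1.

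Interferon gamma and the interferon receptors were looked at beside their targets, in endothelial cells alone. Other interferons and other source cells are not covered here. Ifng, which encodes interferon gamma, had no UMI in the endothelial cells of any library. The receptor chains Ifngr1 and Ifngr2 were at 189, 131, 165 and 119 CPM and at 69.8, 62.6, 68.0 and 66.5 CPM. Ifnar1 and Ifnar2, the type I receptor chains, were at 81.2, 78.9, 71.2 and 53.1 CPM and at 107, 127, 108 and 104 CPM. The receptors were thus present in all 4 libraries, with Din-KO levels within or below those of WT. Irf1, a factor induced by interferon gamma, was at 47.6, 42.8, 72.8 and 69.2 CPM. The chemokines Cxcl10 and Cxcl9, which attract T cells, were at 2.01, 15.6, 25.3 and 39.7 CPM and at 0, 0, 10.0 and 5.90 CPM. Cxcl9 (49 UMIs in Din-KO) was at least 12.9-fold higher over a floor of 3 counts for the WT group.

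**Figure D3:**
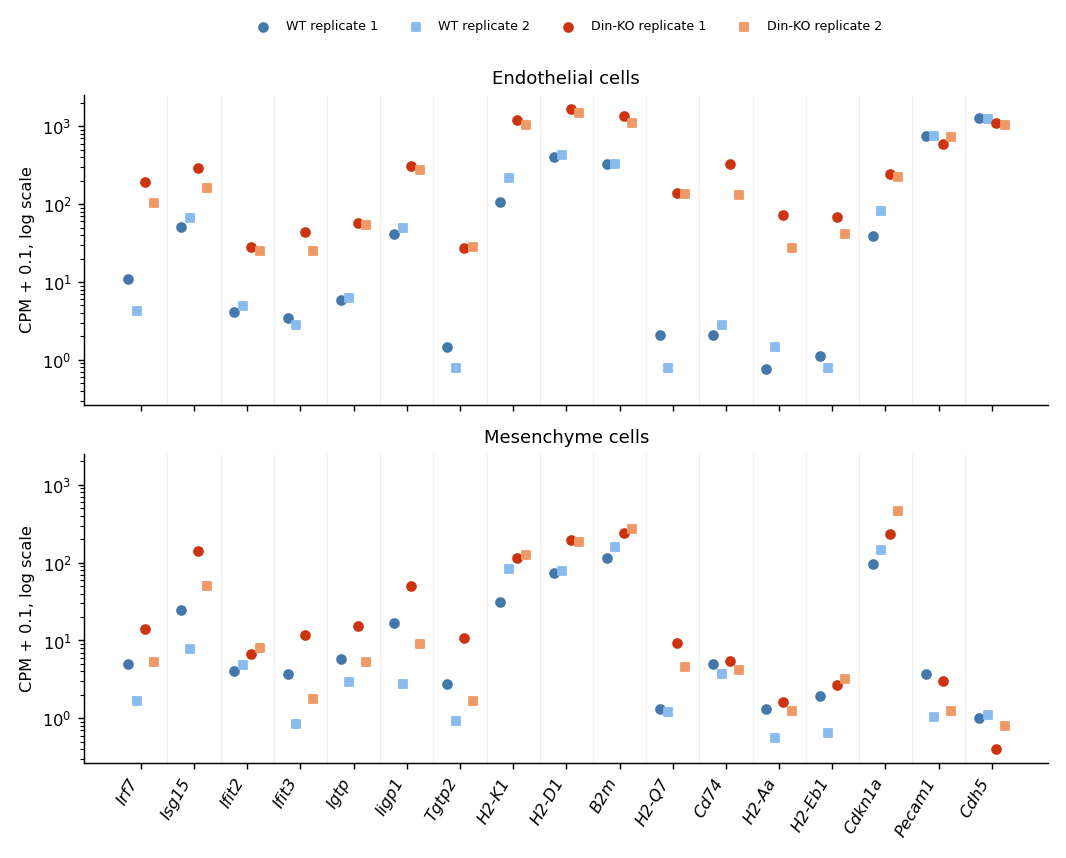
CPM + 0.1 (log axis) of 17 genes in each library, in endothelial cells (top) and in mesenchyme cells (bottom), with 1 point per library. In endothelial cells the Din-KO points of the interferon and MHC genes lie above both WT points, whereas Pecam1 and Cdh5 lie together, and in mesenchyme cells the genotypes overlap for Cd74 and H2-Aa.

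The window from 250 bases before to 50 after each RefSeq transcript start (GRCm38.p6) was searched for letters that interferon-responsive promoters are known to carry. The first was GAAA, any 2 bases and GAAA again, or its complement (TTTC, any 2 bases, TTTC), a core of the interferon-stimulated response element. It was in 3.44% of 32851 windows, or 3.99% of 27025 genes. Among genes with a window, 14 of 33 type I interferon genes held it, all 9 GTPases, 5 of 16 class I genes, 0 of 4 class II genes and 1 of 25 p53 target genes. The second was CTGATTGG or CCAATCAG, the Y box letters of MHC promoters, found in 4.1% of windows, or 4.7% of genes. It was held by 7 of 16 class I genes, 2 of 4 class II genes, 4 of 25 p53 target genes, 0 of 33 type I interferon genes and 0 of 9 GTPases. A match is a description of the letters, not a site shown to be used. Stretches of 30 bases around the match, on the strand of the gene with the motif in capitals, are shown for genes whose levels are given above or, for Ifit1, of the same family. Those with the first motif are:
Isg15, chr4:156200877-156200906, minus strand: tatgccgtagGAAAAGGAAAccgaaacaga
Ifit1, chr19:34640775-34640804, plus strand: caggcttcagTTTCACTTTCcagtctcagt
Ifit3, chr19:34583363-34583392, plus strand: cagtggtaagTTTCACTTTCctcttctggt
Igtp, chr11:58199512-58199541, plus strand: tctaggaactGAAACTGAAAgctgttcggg
Tgtp2, chr11:49064263-49064292, minus strand: tccaggaatcGAAACCGAAAcctactctga
Gbp3, chr3:142559989-142560018, plus strand: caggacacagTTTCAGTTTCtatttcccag
B2m, chr2:122147538-122147567, plus strand: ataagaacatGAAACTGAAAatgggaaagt

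Those with the second motif are genes of the MHC. The match reads CCAATCAG in the class I genes and Tap1 and CTGATTGG in the class II genes, so its orientation differs. It starts at -6, -53, -16, -222, -51 and -62 bases from the transcript start, in the order listed:
H2-K1, chr17:34000321-34000350, minus strand: atcaccaagaaCCAATCAGtgtcgccgcgg
H2-D1, chr17:35263030-35263059, plus strand: gattccaggagCCAATCAGcgtcgccgcgg
H2-Q7, chr17:35439128-35439157, plus strand: attacccggaaCCAATCAGcgtcggcgcgg
Tap1, chr17:34187323-34187352, plus strand: ggctcggctttCCAATCAGcggctgcgcgc
H2-Aa, chr17:34287856-34287885, minus strand: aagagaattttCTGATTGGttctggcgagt
H2-Eb1, chr17:34305794-34305823, plus strand: ctcctttgatgCTGATTGGctcccagcact

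The Din-KO effect was next compared with that in mesenchyme, the 4729 kept cells with a clear collagen signal and fewer than 2 of the 9 genes. Cd74 was at 4.82, 3.60, 5.30 and 4.07 CPM in mesenchyme, where the groups overlapped, unlike in endothelial cells. H2-K1 was at 31.1, 81.9, 114 and 125 CPM in mesenchyme and Irf7 at 4.82, 1.57, 13.9 and 5.19 CPM, with the Din-KO libraries above WT in both. The difference of the 2 effects was tested with library as a block. None of 13805 genes passed in edgeR (0%). At an unadjusted p of 0.05 the effect was higher in endothelial cells for 202 genes (1.46%) and lower for 169, and DESeq2 called 13 higher and 3 lower. Cd74 had the smallest adjusted p, 0.0822, with an effect larger by 6.54 ± 0.47 (SE) on the log2 scale in endothelial cells. For Irf7 the difference was 2.81 ± 0.30 (adjusted p = 0.242). Over lists, the median difference was 4.92 for class II genes, 0.90 for class I, 0.59 for GTPases, 0.42 for type I interferon genes and 0.01 for p53 targets. At an unadjusted p under 0.05, 6 of 7, 12 of 20, 3 of 13 and 11 of 43 genes of the first 4 lists had a larger effect in endothelial cells.

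In other cell classes the type I interferon genes also had positive medians, each from its own fit of Din-KO against WT. The median log2 fold change was 0.88 in mesenchyme (16 of 41 genes higher at an unadjusted p under 0.05, against 0.845% of all genes). It was 1.14 in perivascular cells (21 of 33, against 2.13%), 1.27 in immune cells (16 of 45, against 1.26%) and 0.46 in epithelium (4 of 20, against 0.518%). None of these type I genes was called. In perivascular cells edgeR called 2 of 11404 genes (0.0175%), a p53 target and a Y-linked gene. Class II genes had medians of 0.25 in mesenchyme, 0.89 in perivascular cells (3 genes tested), 0.43 in immune cells and 0.08 in epithelium (3 genes tested). None of them had an unadjusted p under 0.05 in any of these classes. All of these comparisons use the same 4 libraries.

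Among the Din-KO endothelial cells the class II genes were divided unevenly between Xist and Y cells, and in opposite ways in the 2 libraries. In Din-KO replicate 1 the 7 class II genes summed to 1416 CPM in Xist cells and 21.2 CPM in Y cells. In Din-KO replicate 2 they summed to 61.4 CPM in Xist cells and 1132 CPM in Y cells. The WT Xist cells were at 11.4 and 16.7 CPM. Cd74 was at 730 CPM in Xist cells and 2.82 CPM in Y cells of replicate 1, and at 13.6 CPM in Xist cells and 540 CPM in Y cells of replicate 2. The Y cells of replicate 1 were thus at the WT level for Cd74, and the Xist cells of replicate 2 were above it but far below the Y cells of their library. Ciita followed the same order, at 12.1 and 1.41 CPM in replicate 1 (Xist, Y) and 0 and 40.9 CPM in replicate 2.

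The difference lay in the share of cells that held the transcript as well. Cd74 had a UMI in 70 of 119 Xist cells of replicate 1, or 58.8% (exact 95% binomial interval 49.4 to 67.8), and in 4 of 87 Y cells, or 4.60% (1.27 to 11.4). In replicate 2 it had one in 6 of 62 Xist cells, or 9.68% (3.63 to 19.9), and in 24 of 32 Y cells, or 75.0% (56.6 to 88.5). In WT Xist cells the shares were 1.40% and 4.30%. Mesenchyme cells, which should lack Cd74, had a UMI in 2.16% to 3.33% of cells of a library, at median depths of 7924 to 13623 UMIs, and the intervals of the WT shares and of the Y cells of replicate 1 include values in this range, so no Cd74 expression is read from them. The median depth of the endothelial classes was 7444 and 11524 UMIs (Xist and Y, replicate 1) and 12519.5 and 7943.5 (replicate 2), so in each library the class with more Cd74 was the shallower. With each cell thinned to 2000 UMIs the shares were 41.2% and 0% in replicate 1 and 1.61% and 53.1% in replicate 2. In WT Xist cells they were 0.939% and 3.23%, so at this depth the Xist cells of Din-KO replicate 2 lay between the WT shares.

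**Figure D4:**
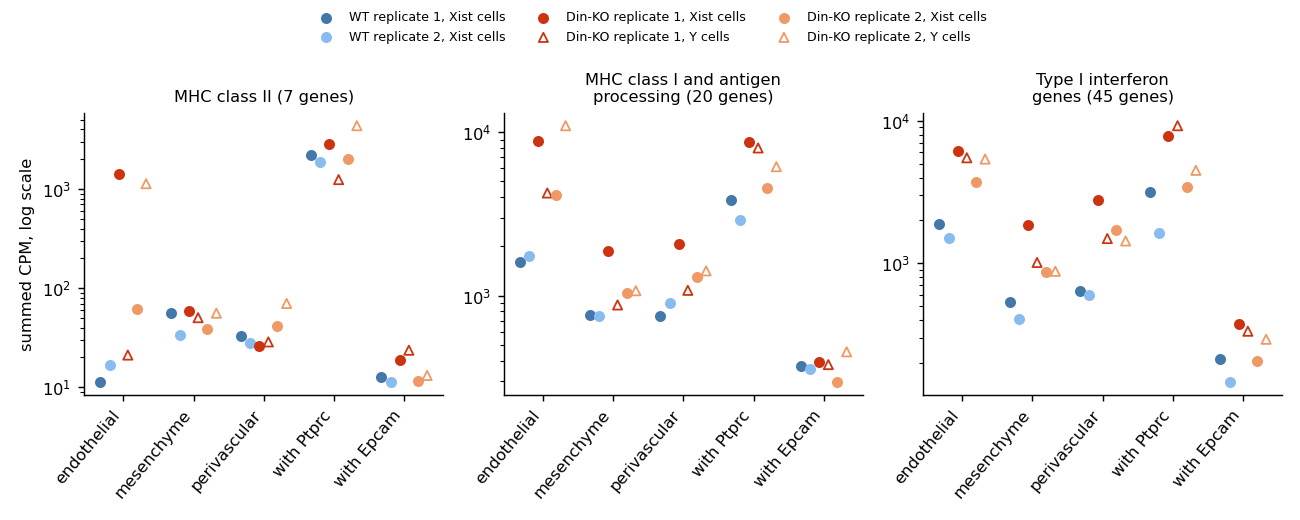
Summed CPM (log axis) of the class II (7 genes), class I (20 genes) and type I interferon (45 genes) lists in Xist cells (filled circles) and Y cells (open triangles) of each library, for 5 cell classes. In endothelial cells the class II sum is 1416 against 21.2 CPM in Din-KO replicate 1 and 61.4 against 1132 CPM in Din-KO replicate 2 (Xist against Y), while all type I interferon sums of Din-KO lie above those of WT.

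Class I genes and GTPases showed the same crossing to a smaller degree. The class I list summed to 8804 CPM in Xist cells and 4240 CPM in Y cells of replicate 1, and to 4147 and 10937 CPM in replicate 2, against 1598 and 1755 CPM in WT Xist cells. H2-K1 was at 1899 and 702 CPM in replicate 1 and at 732 and 2322 CPM in replicate 2 (Xist, Y). H2-Q7 was at 281 and 28.9 CPM in replicate 1 and at 27.3 and 513 CPM in replicate 2, in the same order. The GTPases summed to 1582 and 707 CPM in replicate 1 and to 534 and 2805 CPM in replicate 2, against 244 and 281 CPM in WT. Both lists were above WT in all 4 Din-KO classes. For class II genes the Y cells of replicate 1, at 21.2 CPM, were only slightly above the 11.4 and 16.7 CPM of WT Xist cells. That sum was below the 33.5 to 58.8 CPM of mesenchyme, so no class II expression is read from it. The type I interferon list crossed little, at 6098 and 5503 CPM in replicate 1 and 3700 and 5389 CPM in replicate 2, against 1883 and 1516 CPM in WT. Counted gene by gene, levels were higher in Xist cells of replicate 1 and in Y cells of replicate 2 for 7 of 7 class II genes, 19 of 20 class I genes, 13 of 13 GTPases, 20 of 43 type I interferon genes and 9 of 29 p53 targets, beside 27.9% of all genes.

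The opposite count takes the genes that were above both WT Xist sums in all 4 Din-KO classes. These were 38 of 43 type I interferon genes, 12 of 13 GTPases, 12 of 20 class I genes, 4 of 7 class II genes and 12 of 29 p53 targets, beside 3.95% of all genes. Irf7 was at 266 and 140 CPM in replicate 1 and 106 and 150 CPM in replicate 2 (Xist, Y), against 10.7 and 3.47 CPM in WT Xist cells. Isg15 was at 231, 400, 170 and 237 CPM in the same order, against 51.3 and 68.7 CPM in WT.

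A test of Y against Xist cells over both libraries called no gene of the interferon and MHC lists. Among class II genes, class I genes and GTPases, whose direction differed between the libraries, none had an unadjusted p under 0.05. Their median log2 fold changes (Y against Xist) were -0.60, 0.08 and 0.38, with all 13 GTPases positive. Of 43 type I interferon genes 4 were higher in Y cells and 2 lower at that threshold. Their median was 0.11, with 31 positive and 12 negative. Of 9815 genes 1 was called (0.0102%), Enam, an enamel matrix gene that endothelial cells are not known to make, at 4.03 and 0 CPM in replicate 1 and 780 and 8.19 CPM in replicate 2 (Xist, Y). At an unadjusted p of 0.05, 108 genes were higher in Y cells and 115 lower, and DESeq2 called 0 higher and 1 lower. The number of mice behind each class is not known, and the mouse and the sex of a cell cannot be told apart here.

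Leukocyte markers were compared in the same classes. The macrophage list summed to 228 CPM in Xist cells and 30.3 CPM in Y cells of replicate 1, with C1qa, a complement gene of macrophages, at 67.8 and 4.94 CPM. In replicate 2, however, the list was at 71.6 CPM in Xist cells and 46.4 CPM in the Y cells, which held the more Cd74. Cd74 per CPM of the macrophage list was 3.20 and 0.0930 in replicate 1 and 0.190 and 11.6 in replicate 2 (Xist, Y). In immune cells it did not exceed 0.143 in any Din-KO class. In mesenchyme the class II sum was between 33.5 and 58.8 CPM in the Xist and Y cells of all 4 libraries.

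When only Xist cells were compared between genotypes, the type I interferon median was 1.92 (36 of 43 genes higher at an unadjusted p under 0.05) and the class I median 1.74 (12 of 18). The GTPase median was 1.98 (10 of 11). Of all genes tested there, 227 of 10074 were higher at the same threshold. No gene passed the adjusted threshold there. Class II genes are not counted in this comparison, since only 2 of the 7 had enough counts to be tested, mainly through the Xist cells of Din-KO replicate 1.

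Endothelial cells were divided into 10 clusters without the interferon, MHC, stress and sex genes. Arterial-like cells (91) were led by Stmn2, Gja5, Eln, Sema3g and Bmx. Capillary-like cells (105) were led by Esm1, Cd300lg, Rgcc and Plpp3, although Esm1 is also listed as a tip cell gene. Tip cell-like cells (86), named for the sprouting front of new vessels, were led by Dqx1, Kcne3, Prnd and Apln. Other tip cell genes were higher elsewhere, with Esm1 at 56.9 CPM here and 318 CPM in capillary-like cells, Dll4 at 116 CPM here and 254 CPM in arterial-like cells, and Cxcr4 at 34.6 CPM here and 233 CPM in arterial-like cells, so that the name rests on the leading genes. Venous-like cells (127) formed 2 clusters. The first (61 cells) was led by Adgrg6, Vwf, Net1, Ackr1 and Nr2f2, and the second (66 cells) by Apoa1, Coch and Ccn2, with no venous marker among its 10 leading genes. Proliferation-like cells (88) formed 2 clusters, led by histone and mitotic genes and by replication genes such as Mcm7. A cluster of 115 cells led by Itih5, Aplnr and Spata7 was not named. No cluster was lymphatic.

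The other 2 clusters (71 and 36 cells) were led by genes of other cell types. Amelx, Ambn, Spp1 and Lum of enamel, bone and mesenchyme led the first, and Rgs5 and Mbp of pericytes and glia the second. Their median depth was 20272 and 25714.5 UMIs per cell. In each library these mixed cells were deeper than the other endothelial cells, at medians of 18862, 28120.5, 20326 and 23838 UMIs against 8035, 8284, 6974 and 7985. No doublet caller was run.

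**Figure D5:**
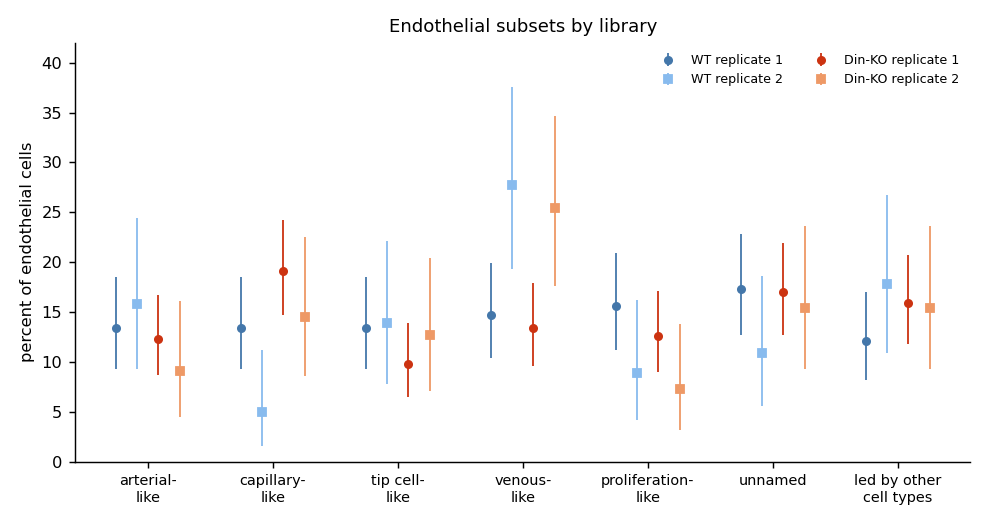
Share of endothelial cells (percent, with exact 95% binomial intervals) in each of 7 groups of clusters, with 1 point per library. In every group the interval of at least 1 WT library overlaps that of a Din-KO library.

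The arterial-like share was 13.4%, 15.8%, 12.3% and 9.09%, so that both Din-KO libraries were below both WT libraries, with means of 10.7% ± 2.25 and 14.6% ± 1.71 (SD, n = 2). The capillary-like share was 13.4%, 4.95%, 19.1% and 14.5%, with means of 16.8% ± 3.24 in Din-KO and 9.19% ± 5.99 in WT. Both differences are ones that an exact permutation test of 2 against 2 libraries cannot bring below p = 0.333. Venous-like shares were 14.7%, 27.7%, 13.4% and 25.5%, and tip cell-like shares 13.4%, 13.9%, 9.75% and 12.7%. The venous-like share was high in replicate 2 of both genotypes. Tip cell-like cells were not found as a cluster at a lower resolution, so that share depends on the clustering.

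Class II genes were not confined to a subset in Din-KO. In replicate 1 they summed to between 381 CPM (capillary-like) and 957 CPM (unnamed cluster), and in replicate 2 to between 72.1 CPM (capillary-like) and 788 CPM (arterial-like). These sums mix Xist and Y cells. In replicate 2 the 13 capillary-like Xist cells were at 25.1 CPM, with Cd74 in 0 of them, and the 2 Y cells at 558 CPM. The proliferation-like group of that library had 8 cells, 1 with Cd74. In WT no subset exceeded 30.8 CPM in either library. Type I interferon genes summed to 3614 to 7646 CPM in the subsets of Din-KO replicate 1 and to 2388 to 5634 CPM in those of replicate 2, and to 1042 to 2692 CPM in WT. Within each of the 7 groups of clusters both Din-KO libraries were above both WT libraries, for the type I sum and for the class II sum.

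Lists of genes of each vessel type were examined next. Of 14 arterial genes 2 had an unadjusted p under 0.05 with a lower level in Din-KO (0.83% of all genes). For 5 both Din-KO libraries were below both WT libraries (15.6% of all genes), and the median was -0.45. It was -0.10 without WT replicate 1. Without the mixed clusters 4 of the 14 were lower at an unadjusted p under 0.05 (81 of 10193 genes in all), with a median of -0.48. Fbln5, an elastic fiber protein, was at 150, 205, 82.2 and 90.1 CPM, a log2 fold change of -0.99 ± 0.22 (edgeR adjusted p = 0.617). Stmn2, a microtubule regulator, was at 175, 63.2, 57.5 and 38.1 CPM, where WT replicate 1 stood apart. The secreted semaphorin Sema3g was at 80.5, 70.0, 52.2 and 55.2 CPM, and the kinase Bmx at 65.1, 32.6, 31.6 and 20.4 CPM. None of the arterial genes was called.

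Capillary, tip cell and venous genes had medians of 0.29 (9 genes), 0.03 (12) and -0.06 (11). The capillary list holds Kdr, a gene of the rule, so its median and counts draw in part on values that chose the cells. Leaving out WT replicate 2 gave a capillary median of 0.18 and leaving out WT replicate 1 one of 0.58. In Xist cells alone it was 0.50, with 4 of 9 genes higher at an unadjusted p under 0.05 (227 of 10074 genes in all). The venous median turned to 0.29 without WT replicate 2 or without Din-KO replicate 1 and was -0.38 without Din-KO replicate 2. Cd300lg, a receptor on capillary surfaces, was at 142, 124, 175 and 205 CPM. Esm1, a proteoglycan of sprouting endothelium, was at 47.3, 59.2, 86.7 and 134 CPM, with a log2 fold change of 1.09 ± 0.27 (edgeR adjusted p = 0.757), and the peptide hormone Apln at 92.6, 66.6, 116 and 105 CPM. For these 3 genes both Din-KO libraries were above both WT libraries, as for 10.9% of all genes. Of the 12 tip cell genes 7 had positive and 5 negative fold changes. Without overlap, 3 of them lay above WT and 1 below (15.6% of all genes lay below). The lower one, Trp53i11, was at 221, 226, 193 and 144 CPM. Nr2f2, the factor that sets venous identity, was at 187, 290, 135 and 175 CPM, and Ackr1, a chemokine-binding protein of venules, was at 14.1, 12.9, 12.1 and 56.3 CPM, high in Din-KO replicate 2 alone. Lymphatic genes had 4 of 8 members tested, with a median of 0.15.

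Signaling and structural lists lay near the median of all genes. Some hold genes of the rule, among them Kdr and Flt1 (VEGF), Tie1 (angiopoietin and Tie), Cdh5 and Cldn5 (junctions) and Plvap (caveolae). Medians of such lists draw in part on values that chose the cells. Medians were 0.04 for VEGF receptors and ligands (9 genes), -0.01 for angiopoietin and Tie genes (7), -0.19 for Notch (12), 0.01 for BMP and TGF-beta receptors (16) and 0.17 for flow-responsive genes (8). Kdr, the main VEGF receptor and one of the 9 genes of the rule, was at 784, 707, 934 and 1051 CPM. Jag1, a Notch ligand, was at 83.8, 97.2, 51.1 and 74.0 CPM. Plpp3, a lipid phosphatase induced by flow, was at 678, 769, 971 and 1407 CPM, and Klf2, the flow-induced factor, at 407, 391, 494 and 438 CPM. Junction genes had a median of -0.12 (12 genes), caveolae and fenestrae -0.17 (8), basement membrane -0.06 (15), integrins -0.19 (12), leukocyte adhesion -0.04 (13) and ligands sent by endothelium -0.0035 (22). Col18a1, the basement membrane collagen that gives endostatin, was at 368, 375, 247 and 238 CPM, a log2 fold change of -0.57. Of all these lists no gene passed the adjusted threshold.

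Genes of the p53 pathway, which halts growth after DNA damage, overlapped between the genotypes for 13 of 29 tested targets. Cdkn1a, the cell cycle inhibitor p21, was at 38.6, 80.9, 247 and 225 CPM, a log2 fold change of 2.06 ± 0.35 (edgeR adjusted p = 0.283). Eda2r, a death receptor, was at 0.335, 0, 12.4 and 8.05 CPM. Zmat3, an RNA-binding protein, was at 14.1, 12.2, 28.5 and 34.3 CPM, and Phlda3, an inhibitor of Akt signaling, at 58.0, 76.2, 117 and 116 CPM. Both Din-KO libraries were above both WT libraries in all 4 genes. Of the 29 targets 11 were higher at an unadjusted p under 0.05 (2.15% of all genes), 16 lay above WT without overlap (10.9% of all genes), none was called, and the median was 0.67. Without the mixed clusters 8 of 27 were higher (223 of 10193 genes in all), with a median of 0.71. In mesenchyme the median was 0.59 (11 of 30, against 0.845% of all genes) and in perivascular cells 1.04 (20 of 29, against 2.13%), so these genes were not higher in endothelial cells alone. In perivascular cells edgeR called 1 of the targets higher. Mdm2 and Plk2, also targets, overlapped between the groups.

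Proliferation genes (28) had a median of -0.01, which moved between -0.48 and 0.67 as single libraries were left out. Genes of dissociation stress (26), such as immediate early genes induced during tissue digestion, had a median of -0.02, which moved between -0.60 and 0.94 as single libraries were left out. They summed to 2792, 7230, 3067 and 6367 CPM, higher in replicate 2 of both genotypes, so that they followed the replicate number and not the genotype. None of these genes had an unadjusted p under 0.05. The 12 GTPase genes that the study names for fibroblasts of these libraries had a median of -0.15 in endothelial cells, with 10 negative and 2 positive values, 4 with both Din-KO libraries below both WT libraries (15.6% of all genes) and none called. Genes of glucose and fatty acid handling (18) had a median of 0.01, and Fabp5, a fatty acid-binding protein, was at 96.9, 98.6, 41.1 and 38.1 CPM (log2 fold change -1.26 ± 0.20, edgeR adjusted p = 0.228). Lpl, lipoprotein lipase, was at 25.8, 97.2, 5.01 and 10.2 CPM, and its difference turned to 0.53 when cells with collagen or perivascular counts were left out.

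Markers of other cell types also varied between the libraries. The enamel gene Amelx was at 30.2, 539, 78.0 and 17127 CPM, and the epithelial list summed to 57.4, 682, 134 and 21581 CPM. Din-KO replicate 2 stood far above the other libraries, although no cell had a UMI of Epcam by the rule. The mesenchyme list summed to 877, 5297, 1209 and 1871 CPM, and the glial list to 2.68, 849, 299 and 232 CPM, both highest in WT replicate 2. The neutrophil list summed to 20.5, 420, 8.70 and 20.4 CPM. Perivascular genes summed to 750, 1709, 706 and 536 CPM, with Rgs5 the most abundant, at 432, 1178, 438 and 352 CPM, and a median log2 fold change of -0.87. Of 10 tested perivascular genes all 10 had lower fitted levels in Din-KO, 6 without overlap of the groups (15.6% of all genes). An unadjusted p under 0.05 was found for 2 (0.83% of all genes were lower), and none was called. WT replicate 2 held the highest sum, the median was -0.43 without it, and it turned to 0.74 (3 genes tested) without cells with collagen or perivascular counts. The part of these cell types in the differences above was not tested beyond sums that left out cells. Without the mixed clusters the type I, GTPase, class I and class II medians were 1.95, 2.35, 1.80 and 5.96. Without cells with collagen or perivascular counts they were 1.83, 2.12, 1.72 and 5.43, and edgeR called 20 genes higher, 13 of them in these lists.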

How the data were processed

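UMI counts per gene and barcode of 4 libraries were deposited by the authors, who made them with Cell Ranger (6.0.2 per the file headers) against mm10/GRCm38, with no normalization and 32285 genes. Kept barcodes followed the filters of the study's methods. Counts were summed per library over the cells of a class, and sums are given as CPM of that class. Python 3.11.15, scanpy 1.11.5 and scipy 1.17.1 were used with R 4.3.3. The test was edgeR 4.0.16's quasi-likelihood test after TMM scaling and filterByExpr, Benjamini-Hochberg adjusted, at a threshold of 0.05, with 2 libraries per group and no covariate, and DESeq2 1.42.0 was an alternative. The difference between endothelial and mesenchyme effects, and Y against Xist cells, were fitted with library as a block. The fits were tested on simulated data. Mesenchyme cells had at least 0.2% collagen UMIs and no Ptprc or Epcam.

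Clustering was by Leiden on 1500 variable genes centred within libraries (20 principal components, 15 neighbors, resolution 1). Members and gene lists were chosen with earlier results of these data known. Genes named were the endothelial genes and 20 leading ones, all called genes (at most 10 in a direction), up to 4 members of each list at 10 CPM or more with the smallest p, Din, Xist and Y-linked genes. Other genes were named after their values were seen. Locations are from GENCODE vM21 on GRCm38 and promoter windows from RefSeq. Alternatives were DESeq2, all genes without the filter, leaving out each library, a replicate block, other minimums of the 9 genes and other cells or clustering settings. Near-identical genes (H2-Q6 and H2-Q7, Tgtp1 and Tgtp2, Ifit3 and Ifit3b) may share reads. Free RNA in droplets was not removed. Some locus results are not reported here.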

Additional observations from a re-analysis of the deposited data

Results flagged for a closer look

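The Xist and Y cells of the Din-KO endothelium differed in opposite directions in the 2 Din-KO libraries for 3 lists. The median log2 ratio of Xist to Y cells over the 7 class II genes was 5.86 in replicate 1 but -4.13 in replicate 2. For the 20 class I genes it was 1.02 in replicate 1 but -1.43 in replicate 2. For the 13 interferon-inducible GTPases it was 0.95 in replicate 1 but -2.60 in replicate 2. The difference between the libraries was not tested, since each library gives 1 value per class.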

How the results depend on the processing

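Counts of called genes changed most. For Din-KO against WT (1 higher and 0 lower in edgeR), DESeq2 gave 56 and 7, no filter on low counts 73 and 9, and leaving out single libraries 0 to 36 and 0 to 30, where the lone sample of a group is assumed to vary like the other group. With at least 3 of the 9 genes, in Xist cells alone and in Xist cells without the mixed clusters it was 0 higher, and without collagen or perivascular cells, or without the mixed clusters, 20. Same-numbered libraries shared a number and a style of library name, which the labels do not explain, so they were not taken as pairs. With the replicate number as a block, 154 genes were called higher and 57 lower, and deviations of same-numbered libraries correlated at 0.559 over 11202 genes. For the difference between endothelial and mesenchyme effects (0 and 0), DESeq2 gave 13 and 3, no filter 17 and 11, single libraries left out 0 to 2 and 0 to 8, and without collagen or perivascular cells 2 and 1. For Y against Xist cells no filter gave 18 and 35.

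The list medians kept their sign for the type I (1.25 to 1.83 with single libraries left out), GTPase (1.99 to 2.33), class I (1.53 to 1.89) and class II lists (4.82 to 6.24). GTPases were at 1.98 in Xist cells, 2.12 without collagen or perivascular cells and 2.35 without the mixed clusters, and class II at 4.35 with at least 3 of the 9 genes. The p53 median was 0.59 to 0.71, 0.56 in Xist cells and 0.50 in those without the mixed clusters. With single libraries left out the arterial median was -0.51 to -0.10, the proliferation median -0.48 to 0.67, that of the study's GTPase genes -0.18 to -0.10 (-0.068 without collagen or perivascular cells), and the perivascular median -1.27 to -0.43 (0.74 without such cells). Tip cell genes were at 0.42 in Xist cells and 0.61 in Xist cells without the mixed clusters. The share of endothelial cells differed by -0.14 to 2.45 points. Tip cell-like cells numbered 0 at a resolution of 0.5 and 25 without centring. The difference of Lpl turned to 0.53 without collagen or perivascular cells. The cause of these changes was not tested. Of 595 alternative values for 40 named genes 475 kept direction and side of the threshold, 115 became significant, 4 lost it and 1 reversed. With 2 libraries per group and 101 to 277 endothelial cells in each, small differences were not detectable.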

Other observations

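In the immune cells, Cd74 was at 1072, 999, 1133 and 1360 CPM, so that a strong class II signal was present in leukocytes of both genotypes. Among Din-KO immune cells the class II sum was 2828 CPM in Xist and 1245 CPM in Y cells of replicate 1, and 2031 and 4354 CPM in replicate 2, which is the order seen in endothelium. In mesenchyme of Din-KO replicate 1 the type I interferon list summed to 1845 CPM in Xist cells and 1014 CPM in Y cells, and the GTPases to 314 and 77.2 CPM. In replicate 2 these sums were 873 and 880 CPM and 68.1 and 77.7 CPM, with no such gap. These differences were not tested.

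Igf1, a growth factor, was higher in Y than in Xist cells of both Din-KO libraries, at 64.2 against 26.2 CPM and 153 against 40.9 CPM, and did not pass in edgeR (adjusted p = 0.842). Kcne3, a potassium channel subunit of the tip cell-like cells, was lower in Y cells, at 56.4 against 132 CPM and 46.4 against 101 CPM.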
